A study of Mus musculus with 8 samples.

Results

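The Serpin family of protease inhibitors was followed in mouse liver on 8 expression arrays. Its members were the transcript clusters (the array's unit for a gene) to which the platform annotation gives a symbol beginning with Serpin, a clade letter from a to i and a number, with no filter on signal. This took 53 of 35556 clusters, and they carry 53 different Serpin symbols. Clade A gave 17 clusters and clade B 27, clades F and I gave 2 each, and clades C, D, E, G and H gave 1 each. A symbol of its own was given to 48 clusters, while 5 carry several symbols of near-identical paralogs: 2 clusters read Serpina1a to Serpina1e together, and 3 read Serpinb9d, Serpinb9e, Serpinb9f and Serpinb9g together. Signals of these paralogs cannot be assigned to 1 gene.

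The livers came from male C57Bl/6J mice in 4 groups of 10. HFD+As mice ate a high-fat diet with 42% of calories from fat and drank deionized water holding sodium arsenite (3 mg/L as inorganic arsenic). HFD mice ate that diet with plain deionized water. LFD+As mice ate a low-fat diet with 13% of calories from fat and drank the arsenite water, and LFD mice ate the low-fat diet with plain water. Exposure lasted 10 weeks according to the protocols and 90 days according to the source label, a difference that was not resolved. RNA of 5 mice was pooled for each array, so each group had 2 arrays and p-values here rest on variation among pools of mice rather than among mice.

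Serpins are proteins that trap a protease by offering it a reactive loop as bait and then deforming the enzyme in an irreversible complex. Hepatocytes secrete many of them into plasma, where they restrain clotting, fibrinolysis, complement and neutrophil proteases. Some members have lost inhibition and serve as hormone carriers or as a collagen chaperone, and clade B members mostly act inside cells.

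The deposited values are log2 signals that ran from 1.38 to 14.8, with array medians between 7.08 and 7.18. Precision is limited by having 2 arrays a group: the standard error (SE) of a group difference had a median of 0.16 over the members and 0.15 over the whole table. Serpina10, Serpina6, Serpina7, Serpina3n, the 4 clusters of Serpina1a to Serpina1e, Serpinc1, Serpind1, Serpinf1, Serpinf2 and Serping1 lay in the top 10% of the table by mean signal. At the other end, 31 of 53 members had a mean under 7 and 29 lay in the lower 40%. Probes differ in brightness, so these positions do not rank the amount of RNA between genes, and without detection calls a dim signal may be background. The hepatocyte markers Alb, Apoa1, Ttr, Fgb, Cps1, Cyp2e1 and Tat averaged between 13.88 and 14.05 on every array. In whole liver, fewer cells of a type and less RNA per cell cannot be told apart.

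Differences are log2 values of the first-named group minus the second, from 1 limma fit to all 8 arrays with p-values adjusted by Benjamini-Hochberg. The whole-table test adjusted over all 35556 clusters. It called 0 members, and 0 clusters of any kind, at an adjusted p of 0.05 in any of the 6 comparisons. Another setting stands beside it, the gene test. It kept 1 cluster per gene and the 60% of genes with the highest mean over all arrays (11963 genes). Its fit was made anew, with its own estimate of the spread. The SEs printed are from the whole-table fit, such as 0.24 for Serpina7, against 0.19 in the gene test. Only 20 of 53 members entered the gene test. It left out the dim members and the 5 clusters with several symbols, the bright shared Serpina1 clusters among them, so what it calls among those 20 does not describe the family as a whole.

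The plasma hormone carrier Serpina6, or corticosteroid-binding globulin, was lower than LFD in all 3 other groups. It stood at 12.28 and 12.32 in HFD+As, 12.78 and 12.60 in HFD, 12.50 and 12.85 in LFD+As, and 13.16 and 13.18 in LFD. Both HFD+As arrays lay below every other array and both LFD arrays above every other array, while HFD and LFD+As overlapped. The difference between HFD+As and LFD was -0.87 (SE 0.14), a level 0.548 times that in LFD, with an adjusted p of 0.0972 over the whole table and 0.00333 in the gene test. HFD alone stood 0.48 below LFD (-0.48, adjusted p 0.746) and LFD+As alone 0.50 below it (-0.50, adjusted p 0.9999), and neither passed the gene test (adjusted p 0.173 and 0.468). HFD+As minus HFD was -0.39 (adjusted p 0.310) and HFD+As minus LFD+As was -0.37 (adjusted p 0.269). The interaction, or arsenite effect under HFD less the one under LFD, was 0.11 (SE 0.20, adjusted p 0.867). In the gene test, the difference between HFD+As and LFD stayed between -0.89 and -0.85 without any 1 array, with an adjusted p of at most 0.0331.

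Serpina7, or thyroxine-binding globulin, stood apart in HFD. Its signals were 9.73 and 10.29 in HFD+As, 10.92 and 10.98 in HFD, 10.49 and 10.18 in LFD+As, and 10.56 and 10.08 in LFD. Both HFD arrays were above all others, and the other 3 groups overlapped. HFD+As minus HFD was -0.94 (SE 0.24, 0.519-fold), with an adjusted p of 0.295 over the whole table and 0.0276 in the gene test. That gene test call ended without replicate 1 of HFD+As (-0.66, adjusted p 0.187) and without replicate 1 of HFD (-0.98, adjusted p 0.161). HFD minus LFD was 0.63 (adjusted p 0.771 over the whole table and 0.227 in the gene test).

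Serpina12, or vaspin, an adipokine that inhibits a tissue kallikrein, followed the diet. It gave 8.75 and 8.27 in HFD+As, 8.20 and 8.31 in HFD, 7.63 and 7.54 in LFD+As, and 7.50 and 7.58 in LFD. All 4 high-fat arrays lay above all 4 low-fat arrays, and the arsenite groups overlapped with their plain-water counterparts on either diet. HFD+As minus LFD was 0.97 (SE 0.17, 1.96-fold), with an adjusted p of 0.0972 over the whole table and 0.00332 in the gene test. HFD+As minus LFD+As was 0.93 (1.90-fold, adjusted p 0.159 and 0.00954 in the same order of tests). HFD minus LFD was 0.72 (1.64-fold), with an adjusted p of 0.667 over the whole table and 0.0559 in the gene test. Replicate 1 of HFD+As was the highest array. Without it, HFD+As minus LFD was 0.73 and still passed the gene test (adjusted p 0.0310), while HFD+As minus LFD+As was 0.68 and did not (adjusted p 0.0845). That call was also lost without replicate 2 of LFD+As (0.88, adjusted p 0.0846).

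Serpina10, the protein Z-dependent protease inhibitor of clotting factor Xa, was highest in HFD. Its signals were 11.39 and 11.69 in HFD+As, 11.94 and 12.02 in HFD, 11.75 and 11.34 in LFD+As, and 11.14 and 11.23 in LFD. Both HFD arrays were above all others, both LFD arrays below all others, and the arsenite groups overlapped between them. HFD minus LFD was 0.79 (SE 0.17, 1.73-fold), with an adjusted p of 0.605 over the whole table and 0.0317 in the gene test. That call was lost in the gene test without any 1 of the 4 arrays compared, where the difference ran from 0.75 to 0.83 and the adjusted p reached 0.278. Arsenite stood 0.36 above plain water on LFD and 0.44 below it on HFD (0.36, adjusted p 0.9999, and -0.44, adjusted p 0.317). The difference between these effects was -0.80 (SE 0.24, unadjusted p 0.0123), with an adjusted p of 0.661 over the whole table and 0.187 in the gene test.

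Serpina3n, an acute phase inhibitor related to human antichymotrypsin, and Serpina4-ps1, a pseudogene by its name, had wider spread between pools. Serpina3n gave 12.98 and 13.12 in HFD+As, 13.63 and 13.25 in HFD, 13.32 and 12.96 in LFD+As, and 12.75 and 13.04 in LFD. HFD lay above LFD and above HFD+As without overlap, by 0.54 (SE 0.19, adjusted p 0.763) over LFD. Serpina4-ps1 gave 9.88 and 9.86 in HFD+As, against 10.69 and 10.10 in HFD (-0.52, SE 0.33, adjusted p 0.469). Serpina11, which is close to Serpina12 on the chromosome, gave 8.77 and 8.52 in HFD+As, 8.78 and 8.67 in HFD, 8.51 and 8.45 in LFD+As, and 8.29 and 8.32 in LFD. All high-fat arrays of Serpina11 were above all low-fat arrays, by 0.42 for HFD minus LFD (adjusted p 0.743) and 0.34 for HFD+As minus LFD (adjusted p 0.217).

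**Figure D1:**
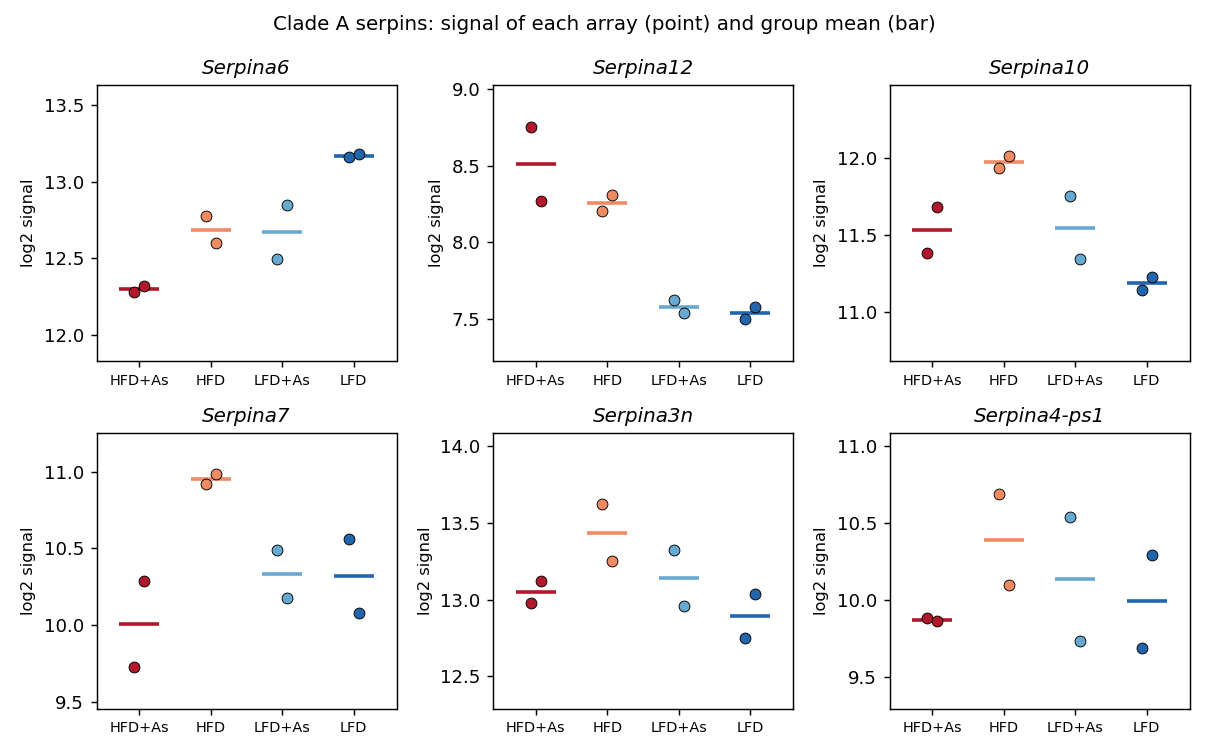
Log2 signal (vertical axis) of 6 clade A serpins in each group, with 1 point per array of 5 pooled mice and a bar at the group mean. Serpina6 is lowest in HFD+As (12.28 and 12.32) and highest in LFD (13.16 and 13.18), Serpina12 is higher in all high-fat arrays than in all low-fat arrays, and Serpina10 and Serpina7 are highest in HFD; each panel spans its own range of signals.

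The genes Serpina1a to Serpina1e encode alpha-1-antitrypsin, the main plasma inhibitor of neutrophil elastase, and their 4 clusters varied little. Serpina1f, with a dim cluster of its own (mean 6.24), is not among them. Signals of the 4 clusters lay between 12.95 and 14.46 over all arrays, near the top of the table's range, where a difference may be compressed. Group differences ran from -0.15 to 0.21 in the pairwise comparisons. Serpina1c gave 13.99 and 13.85 in HFD+As, 13.97 and 13.89 in HFD, 13.78 and 13.96 in LFD+As, and 13.94 and 13.88 in LFD, so all 4 groups overlapped. Serpina1d gave 13.31 and 13.20 in HFD+As, 13.17 and 13.11 in HFD, 12.95 and 13.13 in LFD+As, and 13.17 and 13.21 in LFD. The widest difference among these clusters was that of Serpina1d between HFD+As and LFD+As, 0.21, where the arrays did not overlap. The first of the 2 shared clusters gave 13.65 and 13.62 in HFD+As, 13.58 and 13.57 in HFD, 13.52 and 13.58 in LFD+As, and 13.59 and 13.62 in LFD. The second gave 14.45 and 14.45 in HFD+As, 14.42 and 14.41 in HFD, 14.38 and 14.40 in LFD+As, and 14.39 and 14.46 in LFD. In both shared clusters HFD+As lay above HFD without overlap, by 0.06 in the first and 0.03 in the second.

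The clade A genes are mostly neighbours. Of the Serpina genes named on the array, 17 lie on chromosome 12, in the RefSeq order of assembly GRCm38.p6 Serpina10, Serpina6, Serpina16, Serpina1f, Serpina1b, Serpina1d, Serpina1a, Serpina1c, Serpina1e, Serpina11, Serpina9, Serpina12, Serpina4-ps1, Serpina5, Serpina3a, Serpina3b and Serpina3n; other genes between them are not listed. Of these, 14 have a cluster of their own. Serpina10 and Serpina6 stand next to each other in this list and differed in sign from LFD in every group: 0.35 against -0.87 in HFD+As, 0.79 against -0.48 in HFD and 0.36 against -0.50 in LFD+As. Serpina7 lies apart, on chromosome X.

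**Figure D2:**
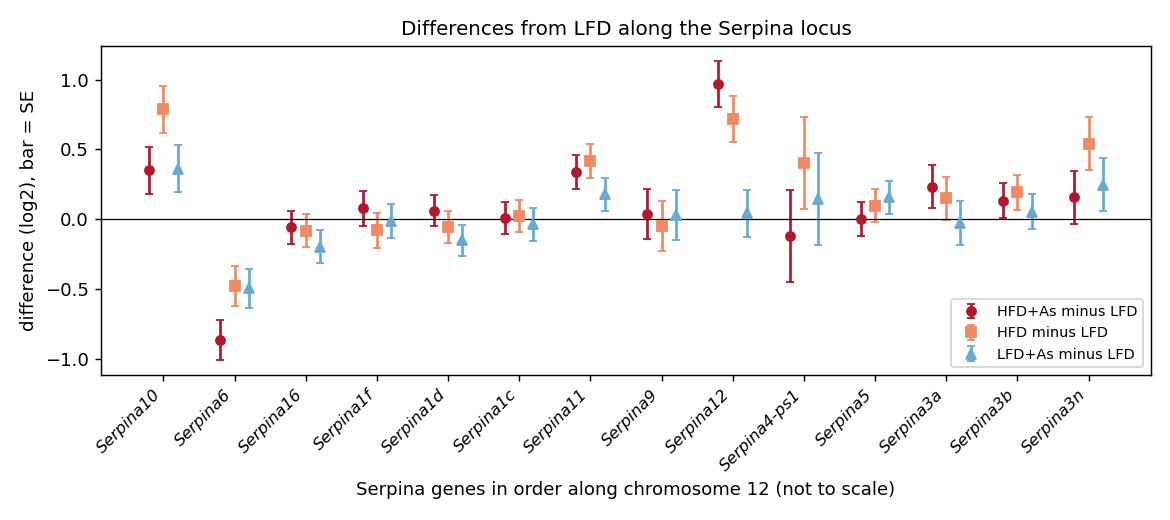
Log2 difference from LFD (vertical axis, bar = SE) of the 14 Serpina genes with their own cluster, in their order along chromosome 12 (horizontal axis, not to scale), for HFD+As, HFD and LFD+As. The neighbours Serpina10 and Serpina6 lie on opposite sides of 0, the Serpina1 genes in the middle lie close to 0, and Serpina12 is high in both high-fat groups.

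Of the members that passed the gene test in some comparison, Serpina6 and Serpina10 had no promoter sequence in the reference used and are named only. The promoter windows of Serpina12, Serpina7 and Serpinf1, which also passed, are shown. That of Serpina1d is set beside them as a clade A gene that passed in no comparison. Each is the 250 bases before the RefSeq start (GRCm38.p6, minus strand, printed 5′ to 3′): Serpina12 at chr12:104044444-104044693, Serpina7 at chrX:139085237-139085486 (the first of its listed starts), Serpinf1 at chr11:75422624-75422873 and Serpina1d at chr12:103773634-103773883. Capitals mark matches, on either strand, to motifs of liver transcription factors: TTGCNNAA for C/EBP, GTTAAT for HNF1, TGTTTNC for FOXA, TTCNNNGAA for STAT and CAAAGTCC for HNF4.
Serpina12: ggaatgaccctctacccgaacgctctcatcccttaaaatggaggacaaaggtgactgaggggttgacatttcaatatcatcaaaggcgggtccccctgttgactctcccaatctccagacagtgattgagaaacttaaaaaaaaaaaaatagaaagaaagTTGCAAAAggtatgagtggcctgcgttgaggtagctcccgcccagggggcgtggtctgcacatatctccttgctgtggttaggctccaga
Serpina7: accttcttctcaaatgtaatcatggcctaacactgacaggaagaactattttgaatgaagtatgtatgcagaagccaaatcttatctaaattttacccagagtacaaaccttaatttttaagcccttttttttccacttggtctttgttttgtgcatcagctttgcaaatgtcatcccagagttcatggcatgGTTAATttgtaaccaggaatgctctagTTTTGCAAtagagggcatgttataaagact
Serpinf1: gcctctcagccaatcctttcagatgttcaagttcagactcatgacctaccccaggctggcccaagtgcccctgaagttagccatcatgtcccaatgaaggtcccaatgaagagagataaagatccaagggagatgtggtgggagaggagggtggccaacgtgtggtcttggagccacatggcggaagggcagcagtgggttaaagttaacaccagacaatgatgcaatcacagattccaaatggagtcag
Serpina1d: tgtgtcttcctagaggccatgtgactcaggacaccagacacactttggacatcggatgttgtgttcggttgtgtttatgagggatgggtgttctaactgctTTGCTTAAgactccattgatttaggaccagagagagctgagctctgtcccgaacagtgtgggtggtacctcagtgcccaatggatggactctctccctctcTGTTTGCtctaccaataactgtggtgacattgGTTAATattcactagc

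Serpina12 held a C/EBP match from -90 to -83 relative to the start. Serpina7 held an HNF1 match from -57 to -52 and a C/EBP match from -30 to -23. Serpina1d held a C/EBP match from -149 to -142, a FOXA match from -48 to -42 and an HNF1 match from -16 to -11. Serpinf1 held none of the 5, and no matches overlapped within these windows. Among 63 windows of 54 mouse Serpin genes in the RefSeq table, members or not, 19.0% held the HNF1 motif, against 6.43% of all 32851 windows. For C/EBP the shares were 23.8% and 9.56%, for STAT 15.9% and 7.02%, for FOXA 20.6% and 17.8%, and for HNF4 1.59% and 1.2%. Windows of recently duplicated paralogs share sequence, so these windows are not independent. A match is a string of letters and says nothing of binding.

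The plasma serpins of clades C, D, F and G were all lower in HFD+As than in any other group mean. Serpinf1, or pigment epithelium-derived factor, a secreted serpin that does not inhibit proteases, gave 12.16 and 12.18 in HFD+As, 12.47 and 12.23 in HFD, 12.37 and 12.53 in LFD+As, and 12.57 and 12.61 in LFD. Both HFD+As arrays lay below all others and both LFD arrays above all others. HFD+As minus LFD was -0.42 (SE 0.12, 0.746-fold), with an adjusted p of 0.150 over the whole table and 0.0320 in the gene test. The gene test call was lost without any 1 of the 4 arrays compared, with differences from -0.44 to -0.40 and an adjusted p of up to 0.139.

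Serpinf2 is alpha-2-antiplasmin, which inhibits plasmin. It gave 12.67 and 12.81 in HFD+As, 13.34 and 13.04 in HFD, 13.06 and 12.99 in LFD+As, and 13.13 and 13.08 in LFD, with both HFD+As arrays below all others. HFD+As minus HFD was -0.45 (SE 0.13, adjusted p 0.297 over the whole table and 0.0616 in the gene test). HFD+As minus LFD was -0.37 (adjusted p 0.219 and 0.0650) and HFD+As minus LFD+As was -0.28 (adjusted p 0.352 and 0.160), in the same order of tests.

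Serpind1 is heparin cofactor II, an inhibitor of thrombin. It gave 12.66 and 12.84 in HFD+As, 12.97 and 12.91 in HFD, 12.89 and 12.98 in LFD+As, and 13.07 and 13.05 in LFD. HFD+As lay below every other array and LFD above every other array, with a difference of -0.31 (SE 0.11, adjusted p 0.212) between them. Serpinc1, or antithrombin, which inhibits thrombin and factor Xa, gave 13.17 and 13.27 in HFD+As, 13.40 and 13.38 in HFD, 13.33 and 13.43 in LFD+As, and 13.43 and 13.42 in LFD. Its HFD+As arrays were also the lowest, by 0.20 against LFD (-0.20, SE 0.10, adjusted p 0.364). Serping1 is the C1 inhibitor, which acts on the complement proteases C1r and C1s and on plasma kallikrein. It gave 12.70 and 12.78 in HFD+As, 13.13 and 12.86 in HFD, 12.95 and 12.94 in LFD+As, and 12.87 and 12.94 in LFD, again with HFD+As below all others (-0.16 against LFD, SE 0.12, adjusted p 0.574).

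For HFD+As minus LFD, 7 of the 13 members in the top 10% of mean signal were negative with a median of -0.16, beside 1869 of all 3556 clusters there and a median of -0.03. For HFD+As minus HFD, 10 of the 13 top 10% members were negative with a median of -0.19, beside 2062 of the 3556 and a median of -0.06. The HFD+As arrays also had a different relation of signal to the genomic span of a gene, with rank correlations of -0.36 and -0.30, against 0.28 and -0.08 in HFD, 0.17 and 0.19 in LFD+As, and 0.32 and -0.02 in LFD. With that trend removed, HFD+As minus LFD was -0.90 for Serpina6, 0.97 for Serpina12, -0.44 for Serpinf1 and -0.41 for Serpinf2. Serpina6 and Serpina12 passed in that test (adjusted p 0.0356 and 0.0357), which was run over the 23312 clusters with a span only. Both also passed with the trend kept over the 23410 annotated clusters (adjusted p 0.0306 each).

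**Figure D3:**
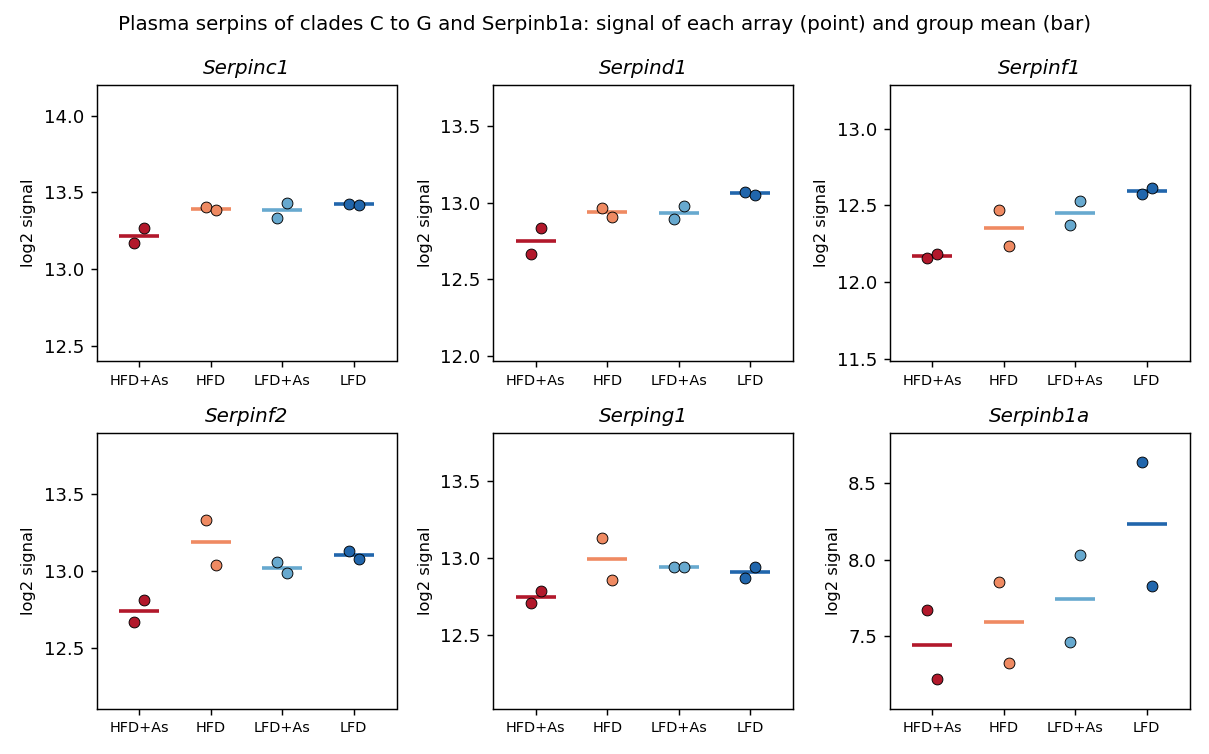
Log2 signal (vertical axis) of Serpinc1, Serpind1, Serpinf1, Serpinf2, Serping1 and Serpinb1a in each group, with 1 point per array and a bar at the group mean. Both HFD+As arrays lie below all others for the 5 plasma serpins of clades C, D, F and G. How many of all clusters do so was not counted. The arrays of Serpinb1a scatter more widely within groups, and each panel spans its own range of signals.

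Clade B serpins protect cells from their own or imported proteases. Among its 27 clusters, only Serpinb1a, Serpinb6a, Serpinb6b and Serpinb9 entered the gene test, and none of these 4 passed it in any comparison with all arrays. Serpinb1a, an inhibitor of neutrophil serine proteases, gave 7.67 and 7.22 in HFD+As, 7.85 and 7.33 in HFD, 7.47 and 8.03 in LFD+As, and 8.63 and 7.83 in LFD. HFD+As lay below LFD without overlap, and the pools within each group were far apart. HFD+As minus LFD was -0.79 (SE 0.34, 0.580-fold), with an adjusted p of 0.295 over the whole table and 0.0540 in the gene test. Replicate 1 of LFD was the highest array: the difference was -0.38 without it and -1.19 without replicate 2 of LFD, where it passed the gene test (adjusted p 0.0403).

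Serpinb9 inhibits granzyme B. It gave 7.95 and 7.84 in HFD+As, 8.38 and 8.22 in HFD, 7.88 and 8.03 in LFD+As, and 8.50 and 8.05 in LFD. Every arsenite array lay below every plain-water array, by 0.41 on HFD (-0.41, SE 0.17, adjusted p 0.331) and by 0.32 on LFD (-0.32, adjusted p 0.9999). Serpinb6b, a paralog of the cathepsin G inhibitor Serpinb6a, gave 7.51 and 7.05 in HFD+As, 7.81 and 7.69 in HFD, 7.16 and 7.29 in LFD+As, and 7.70 and 7.42 in LFD. Arsenite groups of Serpinb6b also lay below their plain-water counterparts on either diet, by -0.47 on HFD (adjusted p 0.317) and -0.33 on LFD (adjusted p 0.9999). On HFD the difference was -0.24 without replicate 2 of HFD+As and -0.70 without replicate 1. Serpinb6a gave 8.12 and 8.03 in HFD, against 7.78 and 7.58 in LFD (0.39, SE 0.12, adjusted p 0.746).

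The other clade B clusters were dim. The 21 in the lower 40% of the table had signals between 2.57 and 6.44, and their pairwise differences ran from -0.55 to 0.54. Serpinb9e, a paralog of Serpinb9, had the smallest spread between pools among the larger differences. It gave 5.85 and 5.79 in HFD+As, 5.25 and 5.30 in HFD, 5.54 and 5.46 in LFD+As, and 5.44 and 5.44 in LFD, with HFD+As above and HFD below all other arrays. HFD+As minus HFD was 0.54 (SE 0.10, unadjusted p 0.000960, adjusted p 0.286).

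The 3 clusters that read Serpinb9d, Serpinb9e, Serpinb9f and Serpinb9g together were likewise higher in HFD+As than in HFD without overlap. The first gave 6.11 and 6.05 in HFD+As, 5.43 and 5.77 in HFD, 5.79 and 5.74 in LFD+As, and 5.81 and 6.19 in LFD (0.48 for HFD+As minus HFD, SE 0.17, adjusted p 0.307). The second gave 6.29 and 6.38 in HFD+As, 5.65 and 6.07 in HFD, 6.17 and 6.10 in LFD+As, and 6.00 and 6.44 in LFD. The third gave 6.14 and 6.18 in HFD+As, 5.54 and 5.94 in HFD, 5.98 and 5.97 in LFD+As, and 5.94 and 6.30 in LFD. These 3 clusters and Serpinb9e share sequence and are not separate measurements. Serpinb9d alone, at 3.56 and 4.09 in HFD+As and 4.37 and 4.39 in HFD, lay the other way (-0.55, SE 0.24, adjusted p 0.349), at a signal near the bottom of the table.

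Serpinh1 is the collagen chaperone HSP47, which resides in the endoplasmic reticulum. It gave 8.10 and 7.88 in HFD+As, 8.19 and 8.15 in HFD, 8.10 and 7.96 in LFD+As, and 7.83 and 7.92 in LFD. HFD lay above all other arrays, by 0.30 over LFD (SE 0.12, adjusted p 0.774). The neuroserpin gene Serpini1, Serpini2 and Serpine3 showed pairwise differences from -0.22 to 0.30 and none with an unadjusted p under 0.05. In all, 23 of the 53 members fell outside the largest differences of every comparison and outside the top 10% of signal, with pairwise differences from -0.34 to 0.39.

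The comparison of HFD+As with LFD asks what the diet and arsenite did together. Serpina12, Serpinb9e, Serpinb10, Serpinb1b and Serpina10 were the highest members and Serpina6, Serpinb1a, Serpinf1, Serpinb9 and Serpinf2 the lowest. With 0 members called over the whole table (0% of all clusters), 3 were higher and 4 lower at an unadjusted p under 0.05, where 17.4% of all clusters were. The 3 higher were Serpina12, Serpina11 and Serpinb9e, and the 4 lower Serpina6, Serpinf1, Serpinf2 and Serpind1. In the gene test 3 of 20 members passed, Serpina12 higher and Serpina6 and Serpinf1 lower, beside 16% of all genes tested, so the share among the members was near the background. Arrays did not overlap for 12 members that were higher and 11 that were lower, beside 44% of all clusters. The dim Serpinb10, or bomapin, gave 5.84 and 5.81 in HFD+As against 5.63 and 5.27 in LFD (0.38, adjusted p 0.293). Serpinb1b, a paralog of Serpinb1a, gave 6.26 and 5.78 in HFD+As against 5.57 and 5.73 in LFD (0.37, adjusted p 0.385).

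The comparison of HFD with LFD gives the diet without arsenite. Its largest positive differences were all in clade A, in Serpina10, Serpina12, Serpina7, Serpina3n and Serpina11, and Serpinb1a, Serpina6 and the 3 shared Serpinb9 clusters were the lowest. Of the members, 0 were called over the whole table (0% of all clusters), and 7 were higher and 2 lower at an unadjusted p under 0.05, beside 6.4% of all clusters. Serpinb6a and Serpinh1 completed the 7. In the gene test 1 of 20 members passed, Serpina10, beside 0.46% of all genes tested. Arrays did not overlap for 11 members that were higher and 10 that were lower, beside 35.7% of all clusters. The median difference over the 17 clade A clusters was 0.10 and over the 27 clade B clusters -0.13, beside -0.03 over the whole table. The lower 40% of the table, which holds 21 of the clade B clusters, had a median of -0.07, and the top 10% had 0.03. A difference between clades cannot be told apart from one of signal level here. Serpinb1a gave 7.85 and 7.33 in HFD and 8.63 and 7.83 in LFD, which overlapped (-0.64, adjusted p 0.791).

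The comparison of LFD+As with LFD gives arsenite on the low-fat diet. Serpina6 was the only member with an unadjusted p under 0.05 (p 0.0101), beside 2.84% of all clusters. The whole-table test called 0 members (0% of all clusters) and the gene test 0 of 20, beside 0.0669% of genes. Serpina10 and Serpina3n were the highest, and Serpina6, Serpinb1a, Serpinb6b, Serpinb9 and Serpinb1c the lowest. Serpinb1c, another Serpinb1a paralog, gave 5.09 and 5.30 in LFD+As against 5.48 and 5.48 in LFD (-0.28, adjusted p 0.9999). The dim Serpinb3a, Serpinb3c and Serpinb3d, paralogs of human squamous cell carcinoma antigens, stood 0.20, 0.19 and 0.24 above LFD, and their arrays overlapped. Arrays did not overlap for 6 members that were higher and 12 that were lower, beside 27.7% of all clusters.

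The comparison of HFD+As with HFD gives arsenite on the high-fat diet. The lowest members were Serpina7, Serpinb9d, Serpina4-ps1, Serpinb6b and Serpinf2, and the highest were Serpinb9e, Serpinb3d, 2 of the shared Serpinb9 clusters and Serpinb3c. The whole-table test called 0 members (0% of all clusters), and at an unadjusted p under 0.05 there were 5 higher and 6 lower, beside 14.8% of all clusters. All 5 higher were dim clade B clusters: Serpinb9e, Serpinb9c and the 3 shared clusters. Serpinb9e and the 3 shared clusters are not separate measurements, so this count repeats 1 paralog group. The 6 lower were Serpina7, Serpina10, Serpina6, Serpinf2, Serpinb6b and Serpinb9. In the gene test 1 of 20 passed, Serpina7, beside 3.63% of genes. Arrays did not overlap for 18 members that were higher and 15 that were lower, beside 50% of all clusters. Serpinb3d gave 5.58 and 5.90 in HFD+As against 4.87 and 5.56 in HFD (0.52, SE 0.31, adjusted p 0.445), and Serpinb3c, at 5.64 and 6.29 against 5.39 and 5.66, overlapped.

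Bright and dim members lay on opposite sides in that comparison. Of the 29 members in the lower 40% of signal, 25 were positive with a median of 0.16, and of the 13 in the top 10%, 10 were negative with a median of -0.19. The same split, in smaller size, ran through the whole table, where 9037 of 14222 clusters in the lower 40% were positive with a median of 0.08. Whether the dim differences are expression or a shift of background signal was not tested.

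The comparison of HFD+As with LFD+As gives the diet in the presence of arsenite. Serpina12, Serpinb1b, Serpinb10, Serpinb9e and the first shared Serpinb9 cluster were the highest, and Serpina6, Serpina7, Serpinb1a, Serpinf2 and Serpinf1 the lowest. The whole-table test called 0 members (0% of all clusters), while 3 were higher and 1 lower at an unadjusted p under 0.05, beside 16.2% of all clusters. Those were Serpina12, Serpinb1b and Serpinb9e, and Serpina6. In the gene test Serpina12 alone passed among 20 members, beside 10.3% of genes. Arrays did not overlap for 19 members that were higher and 6 that were lower, beside 49.4% of all clusters. Serpinb1b gave 6.26 and 5.78 in HFD+As against 5.55 and 5.41 in LFD+As (0.54, SE 0.19, adjusted p 0.243). That difference was 0.30 without replicate 1 of HFD+As and 0.78 without replicate 2. Serpinb10 gave 5.84 and 5.81 in HFD+As against 5.33 and 5.63 in LFD+As (0.35, adjusted p 0.354).

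**Figure D4:**
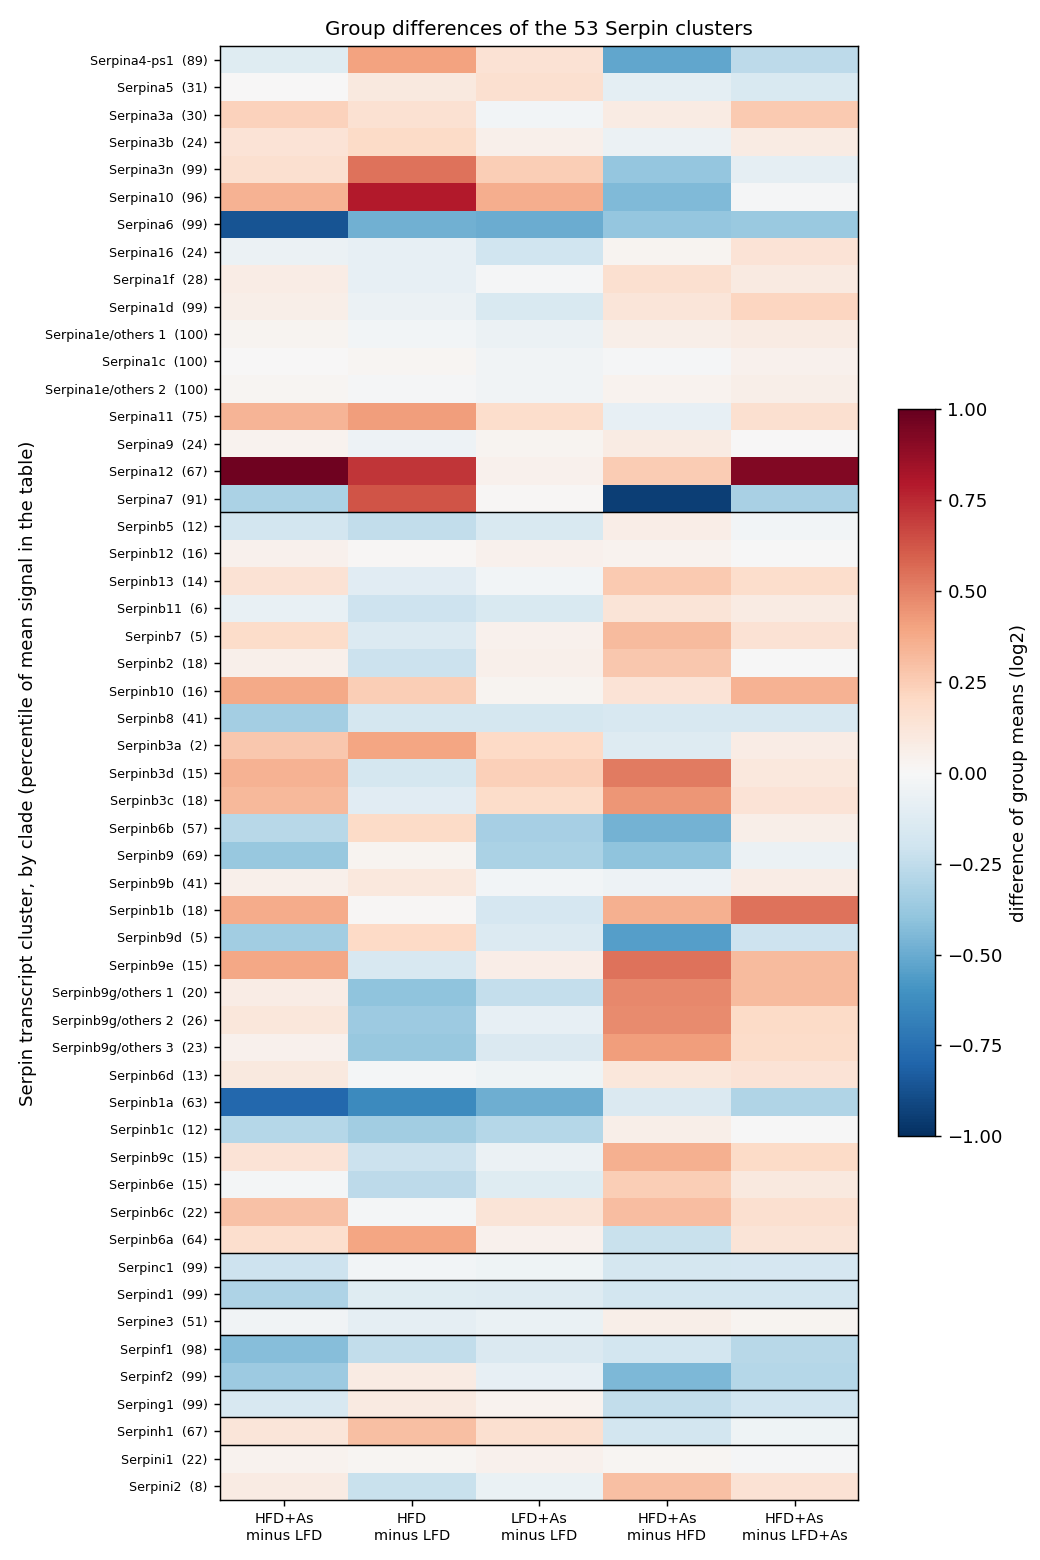
Log2 difference of group means (colour, blue below 0 and red above 0) for each of the 53 Serpin clusters (rows, by clade, with the percentile of mean signal in the table in parentheses) in the 5 pairwise comparisons (columns). Among the deepest colours are those of Serpina12 in HFD+As minus LFD (0.97) and HFD+As minus LFD+As (0.93), Serpina7 in HFD+As minus HFD (-0.94), Serpina6 (-0.87) and Serpinb1a (-0.79) in HFD+As minus LFD, and Serpina10 in HFD minus LFD (0.79).

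The interaction asks whether arsenite had another effect on HFD than on LFD. It was most negative for Serpina7 (-0.96, SE 0.33), Serpina10 (-0.80), Serpina4-ps1 (-0.67), Serpina3n (-0.63) and Serpinb9d (-0.41). It was most positive for the 3 shared Serpinb9 clusters (0.72, 0.56 and 0.55), Serpinb1b (0.53) and Serpinb9e (0.48). The whole-table test called 0 members (0% of all clusters) and the gene test 0 of 20 (0% of genes). At an unadjusted p under 0.05 there were 2 higher, Serpinb9e and the first shared Serpinb9 cluster, and 2 lower, Serpina7 and Serpina10, beside 7.5% of all clusters. The 2 higher clusters share sequence and are not separate measurements. Arsenite effects on the diets had opposite signs in 56.6% of the members and in 50.1% of all clusters. Among the members, 11 were higher on LFD and lower on HFD, 19 the reverse, 11 higher on both and 12 lower on both.

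**Figure D5:**
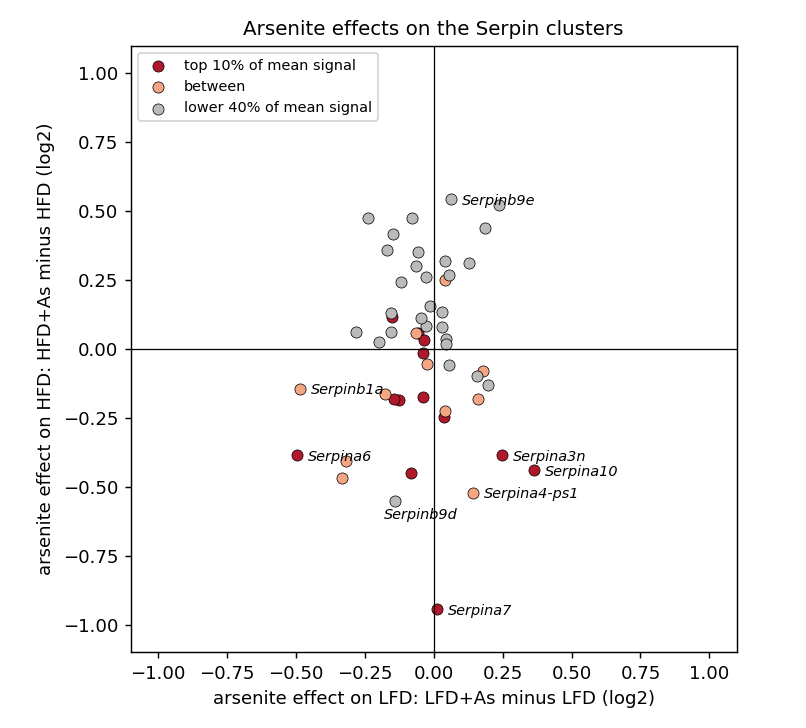
Arsenite effect on HFD (HFD+As minus HFD, vertical axis) against arsenite effect on LFD (LFD+As minus LFD, horizontal axis), both log2, for the 53 Serpin clusters, coloured by their position in the table's mean signal. Most members of the lower 40% (25 of 29) lie above the horizontal line, most of the top 10% (10 of 13) below it, and Serpina7 lies lowest (-0.94).

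Genes that work with serpins were mostly lower in HFD+As than in LFD. The calls of these lists and of the cell type markers are from the gene test, and over the whole table none passed. Over all clusters the median of HFD+As minus LFD was -0.02, and over the brightest 60% of them -0.05, and 1479 of the 1909 genes that passed were lower. Among 29 target proteases and partners, 23 were lower and 6 higher with a median of -0.16. The gene test took 22 of the 29, and 5 of these passed, all lower, beside 16% of all genes tested. They included Lrp1, a liver receptor that clears serpin-protease complexes (-0.82, adjusted p 0.00640), Masp1, a protease of the lectin pathway inhibited by Serping1 (-0.55), and clotting factor F8 (-0.52). Lrp1 gave 11.11 and 11.29 in HFD+As, 12.22 and 11.67 in HFD, 11.93 and 11.99 in LFD+As, and 12.01 and 12.04 in LFD, with HFD+As below all other arrays. Against HFD, Lrp1 (-0.74) and C1s1 (-0.47), the complement target of Serping1, passed, 2 of 22 beside 3.63% of all genes. Against LFD+As 5 of 22 passed beside 10.3%, led by Lrp1 (-0.76), F8 (-0.54) and Masp1 (-0.51).

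Of 26 protease inhibitors outside the family, 17 were lower in HFD+As than in LFD, with a median of -0.19. In the gene test 5 of 22 passed, 1 higher and 4 lower. The metalloprotease inhibitor Reck (-0.64), the murinoglobulin Mug2 (-0.50) and the cathepsin inhibitor Cstb (0.49) led them. Of all genes tested 16% passed, which is the background for this list and the next. Among 9 hormone and vitamin carriers 7 were lower, with a median of -0.10, and angiotensinogen, itself a serpin by structure under the symbol Agt, was the 1 of 9 that passed (-0.37, adjusted p 0.0468). In HFD+As against HFD, Itih4 (-0.59), 1 of 22 inhibitors, and Igfbp1 (-1.23), 1 of 9 carriers, passed, beside 3.63% of all genes. In HFD+As against LFD+As, Reck (-0.52) and Mug2 (-0.50) passed, beside 10.3% of all genes.

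Secretory pathway genes, which serve folding and export in the endoplasmic reticulum or encode collagens, numbered 21, of which 20 entered the gene test. In LFD+As 19 of 21 were above LFD, 13 of them without overlap, with a median of 0.13, and 0 passed. Of all clusters 27.7% did not overlap there, in either direction. Higher without overlap were 4353 of 35556 clusters, and 895 of 3556 in the top 10% by mean signal. In the top 10% by mean signal 2176 of 3556 clusters were above LFD (median 0.03). In the brightest 60%, 10572 of 21334 were. In HFD+As 20 of 21 were below LFD+As, 15 of them without overlap, with a median of -0.20. Of all clusters 49.4% did not overlap there, in either direction. Lower without overlap were 9819 of 35556 clusters, and 1479 of 3556 in the top 10% by mean signal. In the top 10% by mean signal 2031 of 3556 clusters were lower (median -0.06), and in the brightest 60% 11998 of 21334 (median -0.04). The collagen prolyl hydroxylase subunit P4ha1 (-0.60, adjusted p 0.0393) and Edem1, which directs misfolded glycoproteins to degradation (-0.45, adjusted p 0.0408), passed there, 2 of 20 beside 10.3% of all genes. Against HFD, 20 of 21 were lower in HFD+As with a median of -0.15. P4ha1 passed there (-0.69), 1 of 20 beside 3.63% of all genes. Against LFD, 14 were lower with a median of -0.10, and 0 passed.

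A further list held 20 transcription factors, receptors and signalling genes, chosen as possible regulators of liver serpin genes. Of these, 12 were lower and 8 higher in HFD+As than in LFD, with a median of -0.16. A part of these genes in the serpin differences was not tested. In the gene test 1 higher and 7 lower passed among the 19 that entered it, beside 16% of all genes. Socs2, a growth hormone feedback inhibitor, was the most negative (-1.62), before Onecut1 (-1.43) and Foxa1 (-0.79). Socs2 gave 8.69 and 8.47 in HFD+As, 9.45 and 9.19 in HFD, 8.51 and 7.82 in LFD+As, and 10.14 and 10.27 in LFD, with both LFD arrays above all others. It was also the only gene of the 5 lists to pass in LFD+As against LFD (-2.04, adjusted p 0.000546), and none passed in HFD against LFD. In HFD+As against HFD, Socs2 passed (-0.74, adjusted p 0.0481), 1 of 19 beside 3.63% of all genes. In HFD+As against LFD+As, Bcl6 (-1.19) and Hnf4a (-0.41) passed from that list, 2 of 19 beside 10.3% of all genes.

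Markers of several liver cell types differed between HFD+As and LFD. In the gene test for that comparison 16% of all genes passed, and 1479 of the 1909 that passed were lower. Over the brightest 60% of clusters, 12393 of 21334 were lower, with a median of -0.05. A single pass in a list of 7 or 8 genes is near that 16%. Sinusoidal endothelial markers were lower in HFD+As than in LFD for 7 of 8 genes, with a median of -0.36, and Stab2 (-0.91), Kdr (-0.69) and Stab1 (-0.61) passed the gene test. Their mean signal was 9.14 on both HFD+As arrays, 9.73 and 9.31 in HFD, 9.40 and 9.47 in LFD+As, and 9.61 and 9.41 in LFD. Kupffer cell markers were lower for 7 of 9 genes (median -0.26), with Csf1r lower (-0.66) and Marco higher (0.54) in the gene test. Neutrophil markers were higher for 7 of 10 genes (median 0.22), and S100a9 passed (0.81). Hepatocyte markers were lower for 6 of 7 genes (median -0.10), and Cps1 passed (-0.39). Stellate cell markers were lower for 7 of 8 genes (median -0.20), and Reln passed (-0.53). All hepatocyte, Kupffer cell, stellate and sinusoidal markers entered the gene test, but only 3 of the 10 neutrophil markers. No gene passed among the few that entered it from the lists of lymphocytes (3 of 7), cholangiocytes (2 of 5), exocrine pancreas (3 of 6), adipocytes (2 of 5), platelets (3 of 4) and mesothelium (1 of 3). Against HFD, Stab2 (-0.73) passed among 8 sinusoidal markers and Adgre1 (-0.61) and Cd5l (-0.59) among 9 Kupffer cell markers, beside 3.63% of all genes. Against LFD+As, Stab2 (-0.77), Kdr (-0.55) and Stab1 (-0.54) passed among 8 sinusoidal markers, beside 10.3% of all genes. There S100a9 (0.64) also passed among the 3 neutrophil markers tested and Sox9 (-0.56) among the 2 cholangiocyte markers tested. The part of these cells in the differences of Serpinb1a, Serpinb9, Serpinb6b and Serpinh1, and in those of the plasma serpins, was not tested.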

How the data were processed

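The deposited table holds log2 signals per transcript cluster of the Affymetrix Mouse Gene 1.0 ST array, which the authors made, per the submitters' processing notes, in Affymetrix Expression Console 1.0. Background correction, normalization and summary methods are not given in the sources used here. The values were used as deposited, with no pseudocount, and samples were grouped by the labels' diet and agent. Members and gene lists were chosen with earlier results of these data known.

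Symbols came from the platform annotation, which names 1 gene for 21789 clusters, several for 1621 and none for 12146. Whether those 12146 include control clusters was not tested, and they count in the whole-table adjustment and in shares of all clusters. RefSeq's GRCm38.p6 table gave gene order, spans and promoter windows. Group means were fitted with limma 3.58.1 in R 4.3.3 (lmFit and eBayes, 4 residual and 2.91 prior degrees of freedom, two-sided, Benjamini-Hochberg within each comparison), and the code was tested on simulated data. The gene test used clusters with 1 symbol and had 9.32 prior degrees of freedom. It was listed as an alternative beside the whole-table test. No sample was dropped or imputed.

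Named members were the 5 highest and 5 lowest of each comparison, the top 10% by mean signal and any that passed. From each list, up to 3 passing genes with the widest difference were named in a comparison. Alternatives were the brightest 60% of clusters, an intensity trend, quantile normalization, removal of the span trend, a replicate block, each array left out and, chosen after seeing the data, annotated clusters only and the gene test with each array left out.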

Additional observations from a re-analysis of the deposited data

Results flagged for a closer look

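In 9 cases, covering 6 clusters, both arrays of 1 contrast moved one way and both arrays of the matching contrast the other, and the arrays did not overlap in either. The share of all clusters that meet this rule is not given here. Non-overlap alone held in 27.7% to 50% of all clusters in these contrasts, and arsenite effects had opposite signs in 50.1%. These single shares do not give the share for the joint rule. Whether such cases are particular to the members was not tested. The difference between the arsenite effects (on HFD minus on LFD) was -0.80 for Serpina10 (SE 0.24), 0.27 for Serpina1d, 0.12 for the first cluster shared by the Serpina1 genes, 0.72 for the first cluster shared by the Serpinb9 paralogs and -0.34 for Serpinh1. The difference between the diet effects (with arsenite minus without) was 0.27 for Serpina1d, 0.12 for the first shared Serpina1 cluster, 0.48 for Serpinb9e and 0.72 for the first shared Serpinb9 cluster. Both are the same interaction term, and 0 of these clusters passed it with limma over the whole table, with adjusted p from 0.661 (Serpina10) to 0.795 (the shared Serpina1 cluster).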

How the results depend on the processing

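The whole-table test called 0 members in each comparison, and this stayed 0 with an intensity trend, with quantile normalization, with the replicate block and without any 1 array. For HFD+As against LFD, 2 members (Serpina6 and Serpina12) were called among the brightest 60% of clusters, with the span trend removed and among annotated clusters (adjusted p from 0.0306 to 0.0371), and 3 in the gene test. At an unadjusted p under 0.05 the member counts were 7 there, 1 for LFD+As against LFD, 9 for HFD against LFD, 11 for HFD+As against HFD, 4 for HFD+As against LFD+As and 4 for the interaction. The gene test called 1 for HFD against LFD, 1 for HFD+As against HFD and 1 for HFD+As against LFD+As. With 1 array left out of the gene test, the counts ran from 0 to 2 for HFD against LFD, 2 to 5 for HFD+As against LFD, 0 to 2 for HFD+As against HFD and 0 to 1 for HFD+As against LFD+As, and Serpinb1a, Serpinb9, Serpina11 and Serpinf2 each passed in at least 1 of them. Over all clusters that each setting tested, the calls for HFD+As against LFD were 0 of 35556 as reported, 1266 of 21334 for the brightest clusters, 1071 of 23410 for annotated clusters, 495 of 23312 with the span trend removed and 1909 of 11963 in the gene test. Removing the span trend changed both the values and the clusters tested. Only the 36 member differences with an unadjusted p under 0.05 were followed under the alternatives. Of the 518 values obtained, 12 were called and 0 reversed in sign. Several alternatives change the test but not the difference, so this count says little about how stable the signs are. Differences outside the 36 could change sign. For Serpina4-ps1, LFD+As minus LFD ran from -0.26 to 0.55 with 1 array left out. Dim clusters and those with several symbols have no value in the settings that leave them out. Replicate numbers were not taken to pair the arrays, because they come from a random division of mice within a group. The correlation of replicate 1 deviations was positive in all 6 pairs of groups (0.0554 to 0.347, highest for HFD with LFD). Whether arrays of the same number share a batch was not tested. The replicate block added 1 call in the whole table (HFD+As against HFD) and 0 among members. With 2 pools a group, no detection calls and paralogs that share probes, small differences of dim clade B clusters cannot be resolved.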
